A study of Caenorhabditis elegans with 48 samples.

Results

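The DNA replication genes pcn-1, psf-3 and chaf-2 were described at 3 genomic windows where the C. elegans Rb/E2F proteins gave ChIP-seq peaks, of 12952 regions formed by merging the peaks of all libraries of the series. The windows lay on chromosome IV at 4049153 to 4050126 (pcn-1), on chromosome I at 534150 to 534627 (psf-3) and on chromosome I at 1822966 to 1823539 (chaf-2), in the coordinates of WormBase release WS180. Each window was the exact extent of a peak of germline EFL-1 replicate 3, and the members of the set were all deposited peaks that overlapped a window, 58 peaks in all. The study had classed the 3 sites as broadly bound, a class for which a peak was needed in each of somatic LIN-35, germline EFL-1 and intestinal DPL-1. The 3 genes were thus chosen by the presence of peaks in these libraries, and counts of libraries with a peak are given as a description. Presence also enters the rank tests below, which give a library without a peak a fixed value. Libraries used in the choice were among those tested, so these tests at the 3 genes were not independent of it. The study assigned the sites with high confidence to pcn-1 (W03D2.4, minus strand), psf-3 (Y65B4BR.8, plus strand) and chaf-2 (Y71G12B.1, plus strand). The chaf-2 site was also assigned to Y71G12B.30, its neighbour on the minus strand. Exons and introns of WS180 were not used here, so positions within the genes are not given.

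Chromatin of 11 strains was precipitated through GFP, giving 23 libraries with a peak list each, next to 22 input samples that were not analysed on their own here. EFL-1 (an E2F protein), DPL-1 (its DP partner) and LIN-35 (the Rb-like pocket protein) carried a carboxyl-terminal GFP:FLAG tag and were expressed in the germline of young adults from the pie-1 promoter, in the soma of L1 larvae from each gene's own promoter, or in the intestine of L1 larvae from the ges-1 promoter. LIN-35 was also expressed in the germline of young adults from the mex-5 promoter (Pmex-5), and HPL-2, a heterochromatin protein of the HP1 family, in the intestine of L1 larvae from the ges-1 promoter. Each strain had 2 replicates except intestinal HPL-2, which had 3. All strains, which were YL445, YL390, YL402, YL468, YL424, YL425, YL409, YL418, YL448, YL398 and YL416, carried unc-119(ed3) III and an integrated transgene with unc-119(+), and the listed genotypes hold no mutation in the tagged factors' own genes. L1 larvae were collected at either of the temperatures given in the methods, and which one applied to each library is not given in the labels, so its part in differences that involve L1 libraries was not tested. Each strain was 1 integrated line, chromatin came from whole animals, and tissue was confounded with stage in the germline against L1 comparison. Fewer cells with a bound site and less binding per cell cannot be told apart in such chromatin, and peak lists hold no marker by which the labelled tissue could be checked.

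E2F transcription factors bind DNA as a heterodimer of an E2F and a DP subunit, and pocket proteins of the Rb family bind the heterodimer and repress its targets. Genes for DNA replication, which are expressed as cells enter S phase, are the best known E2F targets in animals. pcn-1 encodes the sliding clamp PCNA that holds DNA polymerases on their template, psf-3 encodes a subunit of the GINS complex that activates the MCM helicase, and chaf-2 encodes a subunit of chromatin assembly factor CAF-1, which is recruited by PCNA and deposits histones behind the fork.

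The study's motif table lists a stretch of the pcn-1 site, which is shown because it was taken from the central 100 bases of that site and these fell inside the 212 bp that the peaks of all 23 libraries shared. Capitals mark the 20 bases that matched motif 3 of the broadly bound sites, which the study named T-blocks. It is not the motif of the class that the study named somatic E2F, for which no match is listed at this site. Lower case letters are the flanks, and the letters are printed as the table gives them for the minus strand of chromosome IV.
pcn-1: aTTTTTCAACCAATTTGCCTCgaaaattcg
Of these 20 bases, 9 were T. A match is a description of letters and not a measured binding site. The table also lists a motif 3 match, and no somatic E2F match, for the psf-3 site. No match is listed for the chaf-2 site, which may not have been searched because the search took a random part of the class.

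Peak lists were compared by rank, since PeakSeq q-values depend on the depth of a library. Peaks with q below 0.001 were kept, and the peaks of a library were ordered by q. The rank percentile is the position of a peak in that order as a percentage of the list, so that a small value marks a strong peak. The deposited lists held 558 to 7556 peaks with q up to 0.01, and 261 to 6165 peaks (median 1932) were kept. A library without a kept peak in a window was set to 100% for means and tests.

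At pcn-1 a peak with q below 0.001 was present in 23 of 23 libraries. Of all regions, 26 (0.201%) had a peak in every library, and none of the 2049 regions on chromosome I did. The rank percentile at pcn-1 ran from 0.133% to 51.0% with a median of 2.63%, and the peak was in the first 5% of the list in 18 of 23 libraries and in the first 1% in 7. By median percentile pcn-1 was in place 9 of the 26 regions. Among the 45 genes of the replication lists below that could be placed, the only other one with a peak in all libraries was tim-1. It encodes the fork protection protein Timeless, and its region was also assigned to Y75B8A.23 and snRNA:Y75B8A.38. List genes on chromosome V or without a site of a class were not placed, so their peaks are not known here.

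In the germline, the pcn-1 peak was at 1.58% and 1.64% in EFL-1 replicates 2 and 3 and at 1.83% and 0.725% in DPL-1 replicates 1 and 4. It was at 3.00% and 4.92% in LIN-35 replicates 2 and 3, and at 2.63% and 51.0% in Pmex-5 LIN-35 replicates 1 and 2. In percentile the germline LIN-35 peaks thus all lay behind the 4 germline EFL-1 and DPL-1 peaks. This did not hold for the absolute rank, which was 21 and 16 for LIN-35 and 33 and 133 for Pmex-5 LIN-35, against 39 and 77 for EFL-1 and 19 and 14 for DPL-1, since the LIN-35 lists (261 to 1257 peaks) were shorter than the EFL-1 lists (2475 and 4708). Pmex-5 LIN-35 replicate 2, which had the shortest list (261 peaks), stood apart with a q of 6.95e-05.

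In the soma, the pcn-1 peak was at 10.5% and 0.490% for EFL-1, at 0.739% and 0.256% for DPL-1 and at 2.98% and 2.89% for LIN-35, replicates 1 and 2 each. In the intestine it was at 2.58% and 15.6% for EFL-1 (replicates 2 and 3), at 0.133% and 0.676% for DPL-1 and at 0.989% and 2.77% for LIN-35 (replicates 1 and 2 each). The 4 L1 DPL-1 libraries all lay within the first 0.739%, and their range did not overlap that of the 4 L1 LIN-35 libraries (0.989% to 2.98%), while the L1 EFL-1 libraries (0.490% to 15.6%) overlapped both. This order of factors was noticed after the values were seen and was not tested. The smallest q at pcn-1, 2.26e-203, belonged to intestinal DPL-1 replicate 1.

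At psf-3 a kept peak was present in 16 of 23 libraries, and 794 of all regions (6.13%) had one in at least as many. It was found in 12 of 12 L1 libraries of the Rb/E2F proteins, in 3 of 8 germline libraries and in 1 of 3 HPL-2 libraries. In the germline the peak was at 12.3% and 6.20% in EFL-1 replicates 2 and 3 and at 17.5% in DPL-1 replicate 4. DPL-1 replicate 1 had a deposited peak with q 0.00132, just outside the threshold, and LIN-35 replicate 2 one with q 0.00654. The lists of germline LIN-35 replicate 3 and of both Pmex-5 LIN-35 replicates held no peak in the window, so that none of the 4 germline LIN-35 libraries had a kept psf-3 peak.

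In the soma, the psf-3 peak was at 12.7% and 4.62% for EFL-1, 6.89% and 6.61% for DPL-1, and 23.4% and 12.5% for LIN-35. In the intestine it was at 13.3% and 28.3% for EFL-1, 3.23% and 14.7% for DPL-1, and 3.03% and 50.4% for LIN-35. The spread between the replicates of intestinal LIN-35 was the widest among the L1 strains of these 3 factors, and its replicate 2 was the only one of the 12 libraries beyond 30%. The single HPL-2 peak, in replicate 1, was at 65.1%.

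At chaf-2 a kept peak was present in 16 of 23 libraries, 4 of 8 in the germline, 11 of 12 in L1 for the Rb/E2F proteins, and 1 of 3 for HPL-2. In the germline it was at 25.2% and 13.1% in EFL-1 replicates 2 and 3 and at 64.3% and 88.6% in DPL-1 replicates 1 and 4. The last of these had a q of 0.00049, the one nearest inside the threshold at the 3 windows. Germline LIN-35 replicate 2 had a deposited peak with q 0.00956, and the other 3 germline LIN-35 libraries had none. As at psf-3, no germline LIN-35 library kept a peak.

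In the soma, the chaf-2 peak was at 43.9% and 12.9% for EFL-1, 13.4% and 25.7% for DPL-1, and 14.2% and 7.27% for LIN-35. In the intestine it was at 50.8% and 71.3% for EFL-1, at 8.47% and 35.3% for DPL-1, and at 3.75% for LIN-35 replicate 1, with no peak in LIN-35 replicate 2. Where an L1 LIN-35 library had a chaf-2 peak, it lay at 14.2% or less, and 3 of the 4 L1 EFL-1 libraries lay beyond 40%, so that the ranges overlapped only through somatic EFL-1 replicate 2. At psf-3 the order was not the same, since 2 of the 4 L1 LIN-35 libraries lay beyond 20% against 1 of the 4 L1 EFL-1 libraries. These orders were noticed after the values were seen and were not tested.

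**Figure D1:**
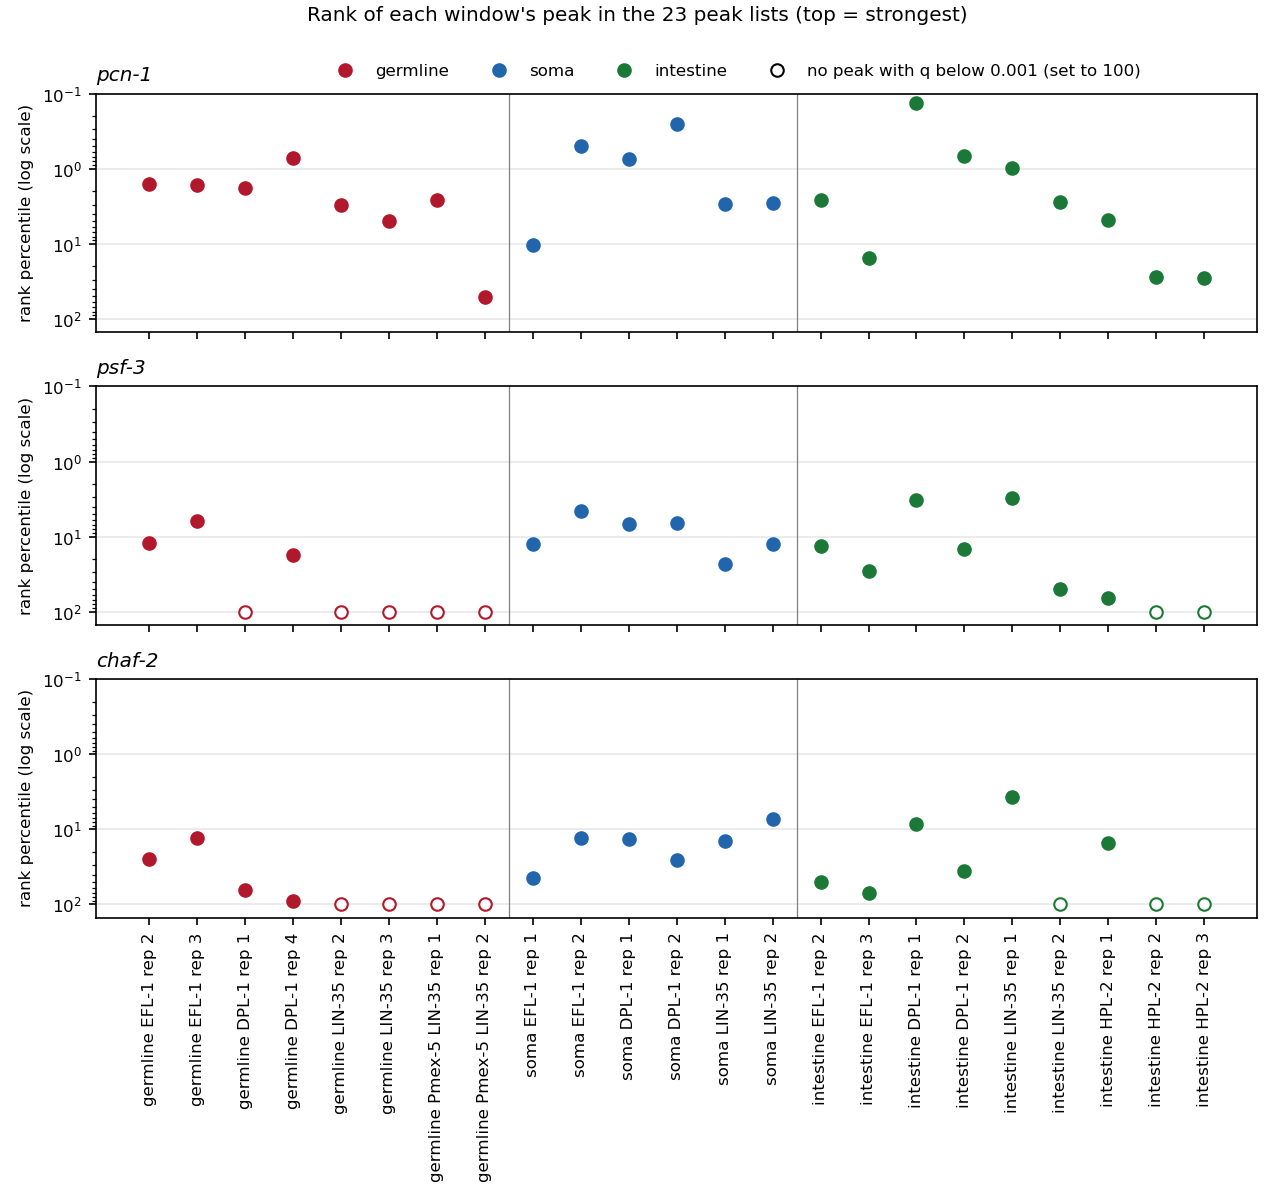
Rank percentile (log scale, strong peaks at the top) of the peak at pcn-1, psf-3 and chaf-2 in each of 23 libraries; open circles at 100 mark libraries without a peak of q below 0.001. pcn-1 has a filled circle in all 23 libraries, whereas psf-3 and chaf-2 are open in all 4 germline LIN-35 libraries and in HPL-2 replicates 2 and 3.

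In none of the 23 libraries was a kept psf-3 or chaf-2 peak ranked ahead of the pcn-1 peak, and both of these peaks were there to compare in 15. Where psf-3 and chaf-2 both had a peak, psf-3 was ahead in 12 of 15 libraries and chaf-2 in 3. Neither had a peak in 6 libraries, which were the 4 germline LIN-35 libraries and HPL-2 replicates 2 and 3. The remaining differences were germline DPL-1 replicate 1, which had only the chaf-2 peak, and intestinal LIN-35 replicate 2, which had only the psf-3 peak.

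The libraries that lacked these peaks also had few peaks on chromosome I, where psf-3 and chaf-2 lie. The share of kept peaks on chromosome I was 13.3% to 20.7% in 14 libraries, and 3.84% to 11.2% in the other 9, a division at 12% that was made after the values were seen. A psf-3 peak was present in 14 of these 14 libraries and in 2 of the other 9, and so was a chaf-2 peak. pcn-1, on chromosome IV, had a peak in all 9. The share was 4.28% and 5.54% in germline LIN-35 replicates 2 and 3, 10.2% and 9.58% in the Pmex-5 LIN-35 replicates, 11.2% and 10.7% in the germline DPL-1 replicates, 9.10% in intestinal LIN-35 replicate 2, and 3.84% and 9.97% in HPL-2 replicates 2 and 3. These 9 lists held 261 to 2579 peaks and the other 14 held 896 to 6165, so low share and short list went together in part. The part of the chromosome I share in the missing psf-3 and chaf-2 peaks was not tested.

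**Figure D2:**
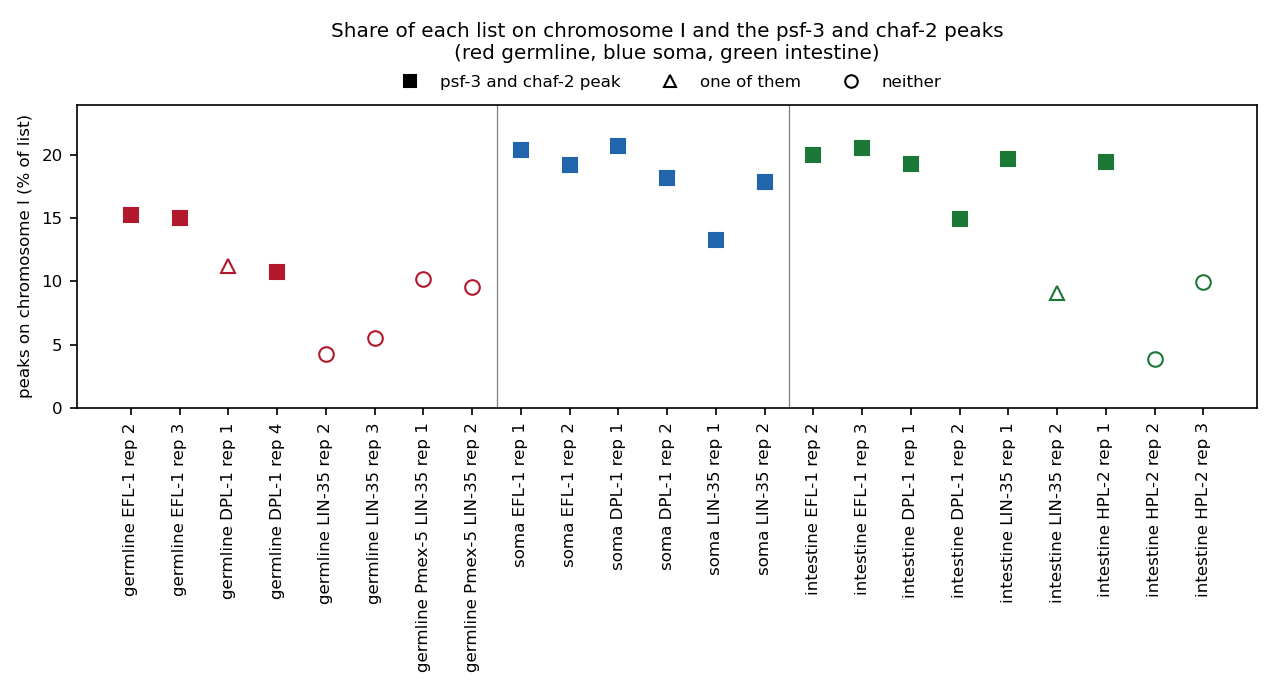
Share of each library's kept peaks on chromosome I in percent, by library; filled squares have both the psf-3 and the chaf-2 peak, triangles one of them, and open circles neither. All 14 libraries at 13.3% or more are filled squares, and germline DPL-1 replicate 4 at 10.7% is the one filled square below them.

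Binding was next compared between the germline and L1, the main contrast of the design. Of the 3 genes, psf-3 was ranked lower in the germline with the 3 factors pooled, and pcn-1 and chaf-2 had values in the same direction that did not pass. LIN-35 made up 4 of the 8 germline but 4 of the 12 L1 libraries, so the groups differed in factor make-up as well. At psf-3 and chaf-2 all 4 germline LIN-35 libraries were set to 100%. Over the 8 germline and 12 L1 libraries of the Rb/E2F proteins, the mean log2 rank percentile at psf-3 was 5.45 ± 1.70 (SD, n = 8) in the germline and 3.41 ± 1.25 (SD, n = 12) in L1, a difference of 2.04 on the log2 scale in the direction of weaker rank in the germline. This difference had an exact permutation p of 0.00777 (two-sided) and a Benjamini-Hochberg adjusted p of 0.0489 over the 4763 regions with a peak in at least 3 of the 20 libraries. At chaf-2 the means were 5.93 ± 1.13 (SD, n = 8) and 4.41 ± 1.45 (SD, n = 12), and the difference of 1.52 did not pass (exact permutation p = 0.0239, adjusted p = 0.0887). At pcn-1 the means were 1.59 ± 1.84 (SD, n = 8) and 0.53 ± 2.06 (SD, n = 12), and the difference of 1.06 lay within the spread between libraries (exact permutation p = 0.258, adjusted p = 0.365). Thus 1 of the 3 genes was called, against 13.6% of all regions tested that were called as ranked lower in the germline and 2.48% called as ranked higher. With the absolute rank in place of the percentile, these became 216 and 955 regions, against 649 and 118, so the direction of the background depends on the scale. The median difference of all regions tested was 0.29.

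The psf-3 call was at the edge of the threshold. The 8 and 12 libraries came from 4 and 6 strains, and with the strain means as units the same difference did not pass (permutation-adjusted p = 0.147). So few strains allow few splits, and a region could pass there only together with many others. With EFL-1 and DPL-1 alone the psf-3 difference was 1.07 (permutation-adjusted p = 0.427). In the same test it was 0.51 at chaf-2 (permutation-adjusted p = 0.636) and 0.21 at pcn-1 (permutation-adjusted p = 0.922). The part of factor make-up in the pooled differences was not tested. The pooled psf-3 call was lost in 15 of 20 exact tests that left out 1 library (adjusted p 0.0149 to 0.0916). It was kept without germline EFL-1 replicate 2 or 3, somatic LIN-35 replicate 1, intestinal EFL-1 replicate 3 or intestinal LIN-35 replicate 2. The psf-3 difference stayed between 1.87 and 2.44 in these tests. Without germline EFL-1 replicate 3, the library whose peaks set the windows, the chaf-2 difference of 1.84 passed (permutation-adjusted p = 0.0453). Over the libraries with a peak alone, the psf-3 difference was 0.048 (permutation-adjusted p = 0.964), and with the 2 germline EFL-1 libraries against the 11 L1 libraries that had at least 12% of their peaks on chromosome I it was -0.084 (permutation-adjusted p = 0.938). Among libraries with a psf-3 peak, the germline and L1 means thus differed by less than the spread between libraries. The pooled psf-3 difference of 2.04 therefore rested mainly on which libraries had a kept peak. When the rank was taken within the peak's own chromosome, psf-3 kept its call (2.04, permutation-adjusted p = 0.0473).

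LIN-35 was also compared alone between the germline, with both promoters, and L1. None of the 3 genes passed after adjustment, although psf-3 and chaf-2 had no kept peak in any germline LIN-35 library. With 4 against 4 libraries the smallest exact permutation p is 0.0286, so here too a region could pass the adjusted threshold only together with many others. A region with no germline LIN-35 peak entered only with a peak in 3 or 4 of the L1 LIN-35 libraries, and that number alone fixed its p. This was so at psf-3 and chaf-2, where the p-values below add nothing to the counts of libraries with a peak. At psf-3 the mean log2 rank percentile was 6.64 in the germline, where all 4 libraries were set to 100%, and 3.86 ± 1.72 (SD, n = 4) in L1, a difference of 2.78 with groups that did not overlap (exact permutation p = 0.0286, adjusted p = 0.0965 over 2299 regions). The groups did not overlap in this direction in 29% of all regions tested, so the separation at psf-3 was shared by many regions. At chaf-2 the difference was 2.83 (exact permutation p = 0.143, adjusted p = 0.167), where intestinal LIN-35 replicate 2 also lacked a peak. Without that replicate both passed, each with a permutation-adjusted p of 0.0382. So did most of the 2202 regions then tested, with 1642 ranked lower and 5 ranked higher. In that test a region with no germline LIN-35 peak entered only if every L1 LIN-35 library left had one. Its groups then could not overlap, so the smallest possible p was fixed in advance for both genes. At pcn-1 the 4 germline LIN-35 libraries (2.63% to 51.0%) overlapped the 4 L1 libraries (0.989% to 2.98%), and the difference of 1.60 was within their spread (exact permutation p = 0.2, adjusted p = 0.23). With all 8 libraries 0% of the regions passed the exact permutation test after adjustment in either direction, while 666 regions ranked lower and 15 ranked higher in germline LIN-35 had an unadjusted p below 0.05. The median difference of all regions tested was 1.23.

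The absence of germline LIN-35 peaks was read against the chromosome. Among regions with a kept peak in at least 16 libraries, 38 of 99 on chromosome I (38.4%) and 135 of 695 elsewhere (19.4%) had no germline LIN-35 peak, while 4 (4.04%) and 54 (7.77%) had one in all 4 libraries, as pcn-1 had. Among the less widely bound regions with 14 to 18 libraries, 93 of 137 on chromosome I (67.9%) and 275 of 630 elsewhere (43.7%) had none. These counts are given with no test, since the peak lists of the same libraries also set the number of libraries.

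Between somatic and intestinal libraries, which shared their stage, no difference at the 3 genes passed the test. The mean log2 rank percentile was lower in the soma by 0.042 at pcn-1, by 0.30 at psf-3 and by 0.72 at chaf-2 (6 against 6 libraries, exact two-sided permutation p = 0.985, 0.68 and 0.405, adjusted p = 1.00 at each). Of 4112 regions 0% passed the exact permutation test after adjustment in either direction, and 5 ranked lower and 60 ranked higher in the soma had an unadjusted p below 0.05. The spread between the libraries of each tissue (SD 0.85 to 2.31) was larger than each of these differences. The smallest p that 6 against 6 libraries allow is 0.00216, so that after adjustment over 4112 regions a region could pass only together with many others, and the missed threshold does not show that these genes were bound alike in the soma and the intestine.

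Peak position was compared next. The extents of the germline EFL-1 replicate 3 peaks were the windows themselves, so this library's own positions and widths were used in the choice and the other libraries entered it only through their overlap. The kept peaks shared a core of 212 bp at pcn-1 (4049607 to 4049818), of 309 bp at psf-3 (534188 to 534496) and of 279 bp at chaf-2 (1823157 to 1823435). Peak widths ran from 249 to 975 bp at pcn-1, from 327 to 549 bp at psf-3 and from 300 to 674 bp at chaf-2. The centres spread by an SD of 58.9 bp at pcn-1, 27.4 bp at psf-3 and 38.4 bp at chaf-2. The core is by definition the stretch that every kept peak covered, and at each gene kept peaks came from the germline, the soma and the intestine. Libraries without a kept peak do not enter it, which at psf-3 and chaf-2 included every germline LIN-35 library.

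At pcn-1 the peak centres of the 8 germline libraries lay 30.4 ± 61.1 bp (SD, n = 8) from the middle of the window and those of the 12 L1 libraries 99.96 ± 48.9 bp (SD, n = 12), counted toward higher coordinates. The difference, germline minus L1, was -69.6 bp, toward lower coordinates, the direction in which pcn-1 is transcribed, with an exact permutation p of 0.0123 and an adjusted p of 0.0612 over 1244 regions, which did not pass. Left out in turn, germline DPL-1 replicate 4 and somatic LIN-35 replicate 2 each brought it past the threshold, with a lowest adjusted p of 0.0252. In all, 17.8% of the regions tested had a called shift of the centre in either direction. At psf-3 the difference was 8.5 bp (adjusted p = 0.776) and at chaf-2 it was 31.1 bp (adjusted p = 0.351), both within the spread between libraries by the exact permutation test. Without germline EFL-1 replicate 3 the differences were -65.2 bp at pcn-1 (permutation-adjusted p = 0.0993) and 42.3 bp at chaf-2 (permutation-adjusted p = 0.277), and psf-3 had too few germline peaks left for a test.

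Peaks were narrower in the germline on average at each gene, by amounts within the spread. The mean width at pcn-1 was 588 ± 251 bp (SD, n = 8) in the germline and 674 ± 162 bp (SD, n = 12) in L1 (exact permutation p = 0.362, adjusted p = 0.529). At psf-3 it was 393 ± 73.7 bp (SD, n = 3) and 462 ± 71.8 bp (SD, n = 12), and at chaf-2 428 ± 125 bp (SD, n = 4) and 492 ± 105 bp (SD, n = 11), with adjusted p of 0.303 and 0.504 from the exact permutation test. Of all regions, 13.6% were called as narrower in the germline and 1.21% as wider. Without germline EFL-1 replicate 3 the mean difference in width was -140.4 bp at pcn-1 and -112 bp at chaf-2, and neither passed (permutation-adjusted p = 0.203 and 0.207).

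**Figure D3:**
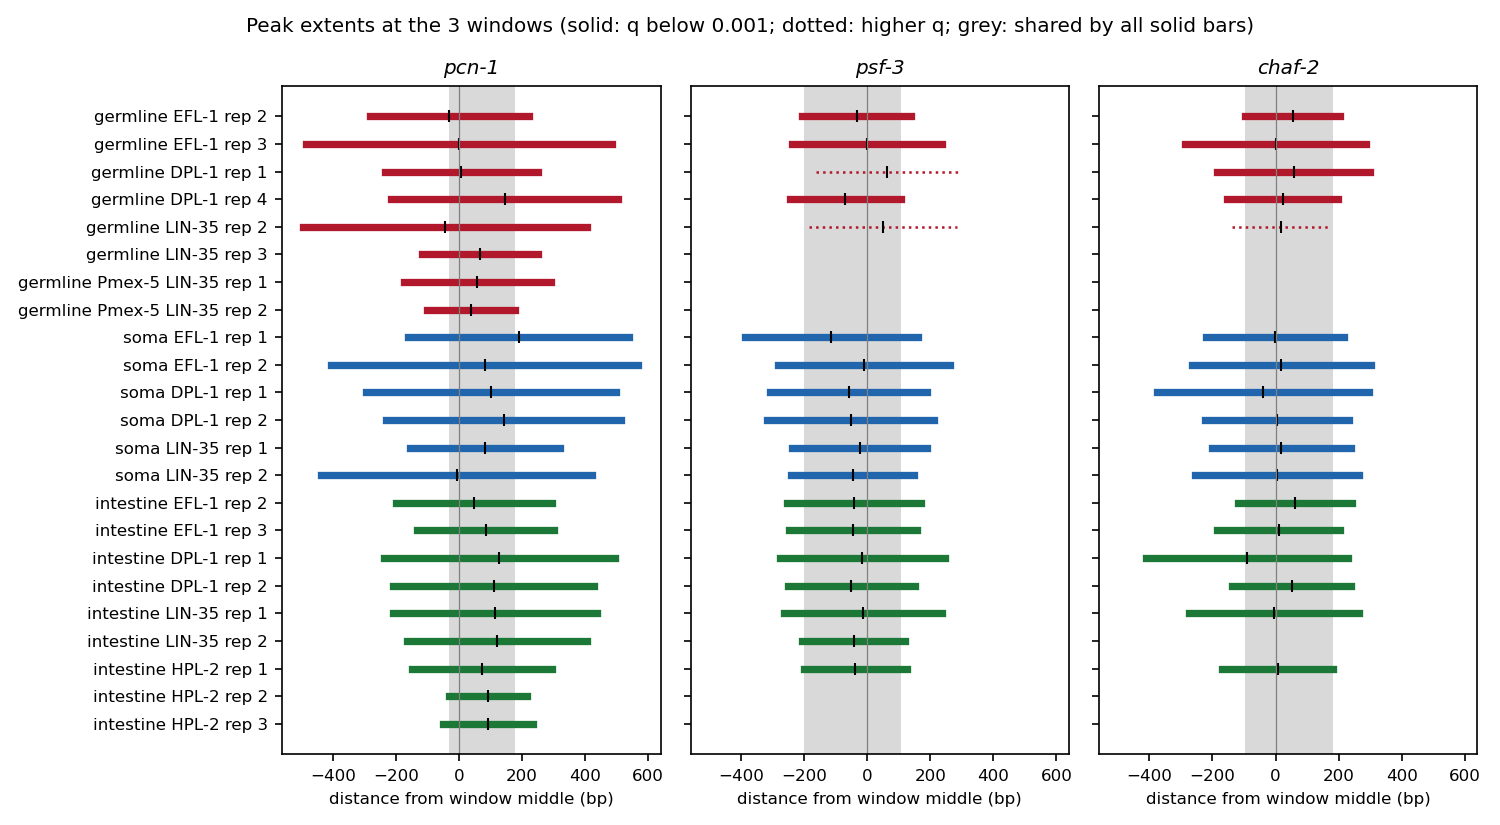
Extent of each library's peak at pcn-1, psf-3 and chaf-2 in bp from the middle of the window (red germline, blue soma, green intestine; black ticks mark centres, dotted bars have q of 0.001 or more). The grey band is the stretch that all solid bars share, 212 bp at pcn-1, 309 bp at psf-3 and 279 bp at chaf-2, and at pcn-1 the germline centres average 30.4 bp against 99.96 bp for the L1 libraries of the Rb/E2F proteins.

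The other genes of the replication machinery were read from 9 lists by role, of which 70 genes matched a RefSeq name. Of these, 45 were placed in a merged region by the study's site assignments, 15 had no site of a class and 10 on chromosome V were not placed. The 45 genes had a kept peak in 3 to 23 libraries (median 17), and 30 of them had one in at least 16. Without the 3 genes described above, 15 of the 42 others were called as ranked lower in the germline than in L1 and 1 as ranked higher, beside 13.6% and 2.48% of all regions, and their median difference was 0.88 beside 0.29 over all regions. These sets are unlike, since a region was tested with a peak in as few as 3 of the 20 libraries. In addition, a gene with several assigned regions was given the one with a peak in the most libraries. The shares over all regions carry no such choice. Of all merged regions, 6.13% had a peak in at least 16 libraries. The part of such breadth in these shares was not tested. The genes were placed through sites that the study had classed on these libraries, so these shares are a description. The calls counted here and those named below took libraries as units. With strain means as units 0 regions passed in either direction, against 649 lower and 118 higher, so none of these calls was kept by strain. The few strains allow few splits, so a region could pass there only together with many others. The 0 therefore does not show which calls would fail by strain. With EFL-1 and DPL-1 alone 109 regions were ranked lower in the germline and 249 higher. No germline LIN-35 peak was kept at 24 of the 45 genes (53.3%), beside 61.0% of all 2402 genes placed in the same way, so the lists were near the background in this. Of the 24, 10 were among the 17 genes on chromosome I and 14 among the 28 on other chromosomes.

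Among the genes of the sliding clamp and its loader, the loader subunit gene rfc-4 had a peak in 22 libraries and rfc-2 in 14, the latter with none in germline LIN-35. pcn-1 and rfc-4 had a peak in all 8 germline libraries, a pattern found at 7 of the 45 genes (15.6%) and at 3.00% of all 2402 genes placed, which had a peak in fewer libraries (median 13 against 17). Of the 3 genes placed on this list, none was called between germline and L1.

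The GINS partner of psf-3 on its list, psf-1, had a peak in 15 libraries and was ranked lower in the germline by 1.34 (adjusted p = 0.0448, exact permutation test with Benjamini-Hochberg adjustment). evl-18, the worm CDC45 gene, whose protein works with GINS at the helicase, had a peak in 13 libraries and a difference of 0.84 that did not pass (adjusted p = 0.125). All 3 lacked a kept peak in the 4 germline LIN-35 libraries. psf-1 lies on chromosome II and evl-18 on chromosome III.

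Of the 7 chromatin assembly genes that were placed, none was called in either direction. lin-53, which encodes an RbAp48 protein that CAF-1 shares with other chromatin complexes, and unc-85, which encodes the histone chaperone ASF1, each had a peak in 20 libraries. unc-85 had one in all 8 germline libraries, with a difference of -1.49 (permutation-adjusted p = 0.0875). The FACT genes hmg-3 and spt-16 had a peak in 3 and 9 libraries, and all 3 peaks at hmg-3 were in the germline. chaf-1, the gene of the large CAF-1 subunit, was picked out after its values were seen. It lies on chromosome I like chaf-2 and had a peak in 11 libraries, 2 in the germline and 9 in L1.

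The MCM list had 5 placed genes, of which mcm-2 had a peak in 21 libraries and in all 8 of the germline, and mcm-10 in 19. mcm-10, which aids helicase activation, was ranked lower in the germline by 2.86 (permutation-adjusted p = 0.00335), whereas mcm-2 had a difference of -2.03 that did not pass (permutation-adjusted p = 0.0861). mcm-6 and mcm-5 had a peak in 16 and 17 libraries. Genes of the list thus had values in both directions, and mcm-10 was the one called.

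Among 9 origin genes, 5 were called as ranked lower in the germline. orc-5 had a peak in 21 libraries with a difference of 2.54 (permutation-adjusted p = 0.0109), and orc-1 in 18 with a difference of 1.05 (permutation-adjusted p = 0.165). orc-4 had peaks in 7 libraries, all in L1, and gmn-1, the geminin gene, in 4, all in the germline. The genes of this list with the fewest peaks thus had them either in the germline alone or in L1 alone, and neither was called.

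Among 6 polymerase and primase genes, 4 were called as ranked lower in the germline. polh-1, which encodes the translesion polymerase eta, had a peak in 22 libraries (difference 1.64, permutation-adjusted p = 0.0131), and pola-1 and pri-2 each in 19. The primase gene pri-2 had the largest difference of the 45 genes, 5.79 (permutation-adjusted p = 0.00809), while at pola-1 it was 1.26 (permutation-adjusted p = 0.169). div-1 and pri-1 had a peak in 14 and 15 libraries and were called with differences of 1.92 (permutation-adjusted p = 0.0102) and 1.57 (permutation-adjusted p = 0.0319).

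Among 7 genes for strand maturation and single-strand binding, rpa-2 and top-2 had a peak in 21 libraries, crn-1 and rpa-1 in 16 and rnh-2 in 11. rpa-1, which encodes the large subunit of the single-strand binding protein RPA, was the 1 gene called as ranked higher in the germline (difference -2.25, permutation-adjusted p = 0.0431). dna-2, which encodes a helicase and nuclease of Okazaki fragment processing and was picked out after its values were seen, was called on the same list as ranked lower (difference 2.02, permutation-adjusted p = 0.00682). On the fork protection list tim-1 had a peak in 23 libraries, clsp-1 (claspin) in 22 and tipn-1 in 17, and clsp-1 and tipn-1 were called as ranked lower in the germline, by 2.45 (permutation-adjusted p = 0.0109) and 2.15 (permutation-adjusted p = 0.0188). For nucleotide supply, rnr-1 (ribonucleotide reductase) had a peak in 16 libraries with a difference of 0.35 (permutation-adjusted p = 0.739), and tyms-1 (thymidylate synthase) in 14 with a called difference of 1.54 (permutation-adjusted p = 0.0263).

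**Figure D4:**
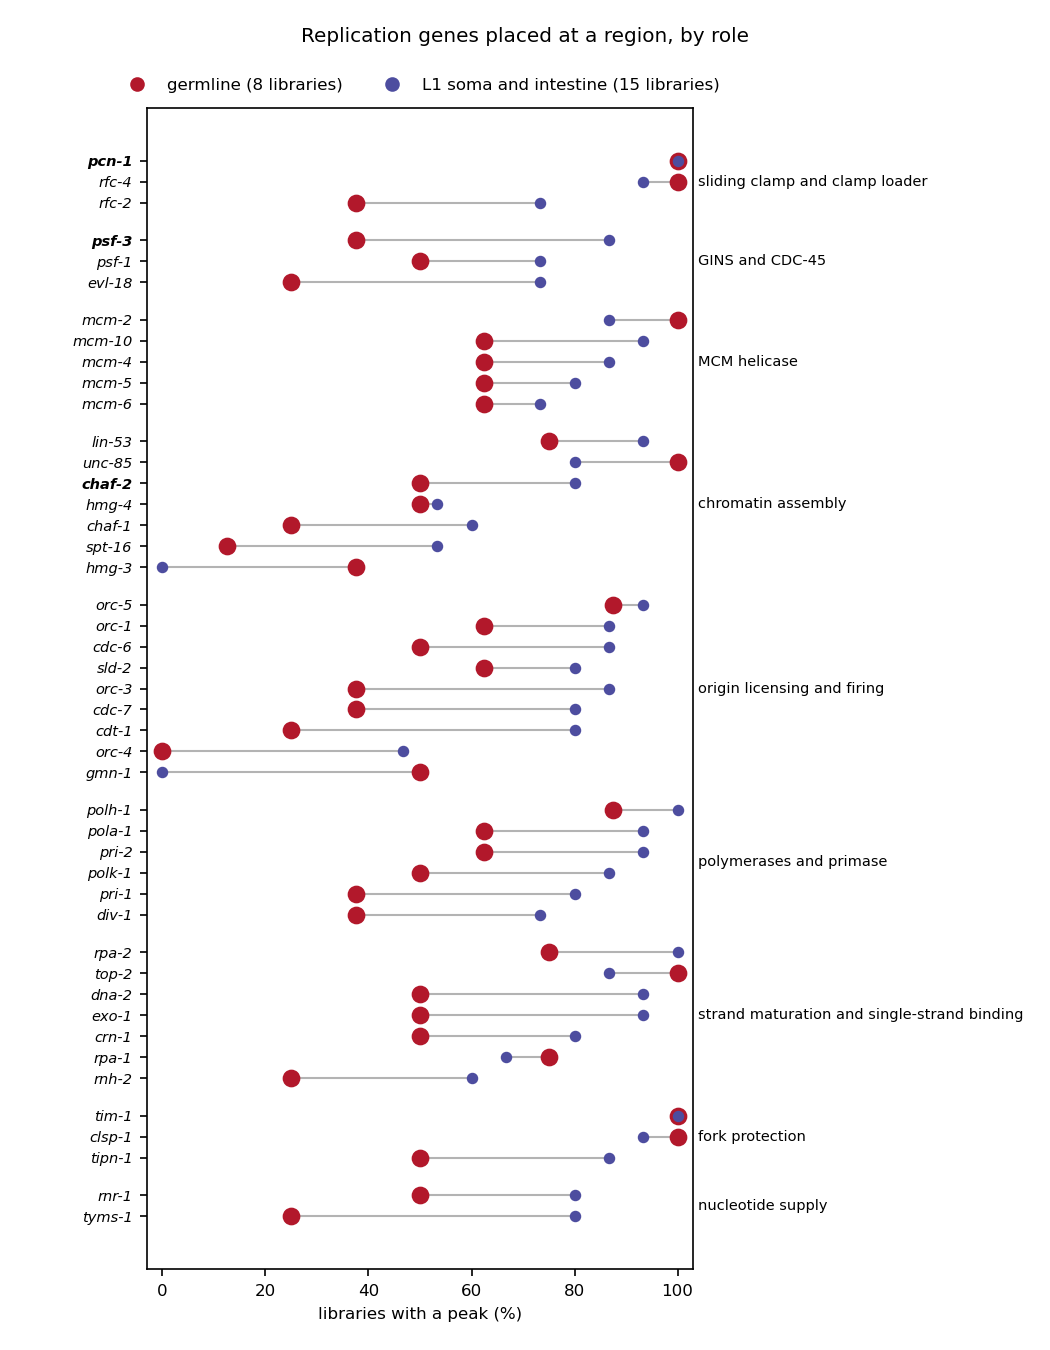
Percentage of the 8 germline and the 15 L1 libraries (HPL-2 included) with a kept peak at each of 45 replication genes, by role, with pcn-1, psf-3 and chaf-2 in bold. pcn-1 and tim-1 are at 100% in both, and psf-3 and chaf-2 are farther to the left in the germline than in L1, as are most genes of the lists.

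The regions whose pattern over the 23 libraries was nearest to each gene were found by the mean absolute difference in log2 rank percentile over 1479 regions with a high-confidence gene. Nearest to psf-3 was orc-3, an origin recognition gene on chromosome III, with a mean difference of 0.35 and a peak or no peak in the same 23 of 23 libraries. The next were a region assigned to hcp-6 (a condensin gene) and let-630, at 0.38, and one at Y34D9A.3, at 0.42, both on chromosome I. Nearest to chaf-2 were the regions of mfsd-13.1 and imb-1 (importin beta), at 0.29, of pqn-21, at 0.30, and of C24F3.2, at 0.31. Nearest to pcn-1 were the region of top-2 (topoisomerase II) and npp-3, at 1.13, that of ddp-1, at 1.25, and that of rpb-11 (a subunit of RNA polymerase II), at 1.33. The distances at pcn-1 were larger than those at the other genes, and these values are descriptions over libraries that share strains and depth.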

How the data were processed

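ChIP-seq with anti-GFP had been done on whole C. elegans of 11 transgenic strains. Peaks had been called by the authors in each library on its own, using PeakSeq and an input control, and they deposited each peak's extent and a q-value (a p-value adjusted for multiple tests) of up to 0.01. In 3 lists 2 sequencing runs of 1 replicate were combined. Coordinates are WS180 (aligner not given in the sources used here). Read depth was not used, so q-values were turned into ranks within a library and precision is limited by the number of libraries. The study describes the replicates as biological replicates. In the labels all intestinal HPL-2 replicates carry the same date, while the replicates of each other strain carry different dates.

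Peaks with q below 0.001 that overlapped by at least 10 bp were merged over 23 libraries, and the count of regions was checked against bedtools 2.31.1. In each library the overlapping peak with the smallest q was used. Differences in mean log2 rank percentile (100% where no peak was kept) were tested by exact permutation over libraries for all regions with a peak in at least 3 libraries of the comparison. Widths and centres were tested over regions with a peak in at least 3 libraries of each group. Benjamini-Hochberg adjustment was over the regions of a comparison, with a threshold of 0.05 (Python 3.11.15, numpy 2.4.6, pandas 2.3.3). The tests were first tested on simulated data, where planted differences were recovered for germline against L1 and in neither of the other rank comparisons, which therefore show little by a missed threshold. The planted difference was 3 on the log2 scale, larger than the germline against L1 differences at the 3 genes. Deviations were shuffled over libraries within a region, which removed any likeness between replicates of a strain. The simulation thus does not show how the test behaves with such likeness or with smaller differences.

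Samples were grouped by the labels. The 3 windows, gene lists, tests and naming rule were chosen with earlier results of these data known. On each list the 2 genes with the most and the 2 with the fewest libraries are named, ties included, and for each of the 3 genes the 3 nearest regions. Gene assignments came from the study's site tables for chromosomes I to IV and X, and names from RefSeq (WBcel235), in which 70 of 74 entries matched a gene, 3 matched none and 1 was a second name. The promoter sequences for a planned motif count were not used here. HPL-2 replicate 3 is not in the study's list of reads, and no input sample of it was analysed here. The alternatives were all deposited peaks, q below 1e-05, absolute rank, libraries without a peak left out, an overlap of 50%, strain means, EFL-1 and DPL-1 alone, the pie-1 promoter alone, log2 width, HPL-2 replicate 3 left out, each replicate left out, and the replicate number as a block. Rank within a chromosome and a minimum of 12% of peaks on chromosome I were added after the data were seen.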

Additional observations from a re-analysis of the deposited data

Results flagged for a closer look

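In rank percentile, the difference between germline and intestine went opposite ways for different factors at each gene, with no overlap between the 2 germline and the 2 intestinal libraries of a factor. At pcn-1 the mean log2 rank percentile of EFL-1 was lower in the germline than in the intestine by 1.98, that is ranked higher, while that of DPL-1 was higher by 1.94 and that of LIN-35 (pie-1 promoter) by 1.22. The EFL-1 effect thus differed from the DPL-1 effect by -3.92 and from the LIN-35 effect by -3.20. At psf-3 the EFL-1 effect was -1.15, against 2.60 for DPL-1 (a gap of -3.75) and 3.02 for LIN-35 (a gap of -4.17). At chaf-2 it was -1.73 for EFL-1 against 2.12 for DPL-1, a gap of -3.85. Each strain had 2 libraries and these gaps were not tested. The kept lists of germline EFL-1 (2475 and 4708 peaks) were longer than those of intestinal EFL-1 (1509 and 896), while germline DPL-1 (1041 and 1932) overlapped intestinal DPL-1 (6008 and 1924) in length. By absolute rank the opposite directions without overlap did not hold at any of the 3 genes, although some factors kept their direction. DPL-1 kept it at pcn-1 (19 and 14 in the germline against 8 and 13 in the intestine). At psf-3 DPL-1 also kept it (339 and no kept peak against 194 and 283). EFL-1 was at 39 and 77 in the germline against 39 and 140 in the intestine at pcn-1, which overlap, and at 304 and 292 against 200 and 254 at psf-3, the opposite direction. LIN-35 at pcn-1 was at 21 and 16 against 61 and 38, also the opposite direction. At chaf-2 EFL-1 kept its direction (623 and 619 against 767 and 639), while DPL-1 overlapped (669 and 1712 against 509 and 680).

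HPL-2 libraries entered no comparison, and a peak was kept in them at all 3 genes, in 3 of 3 libraries at pcn-1 and in 1 of 3 each at psf-3 and chaf-2. The pcn-1 peak was at 4.87%, 27.9% and 28.2% of the list in replicates 1, 2 and 3. In replicate 1 the psf-3 peak was at 65.1% (q 8.15e-06) and the chaf-2 peak at 15.3% (q 5.91e-20). HPL-2 replicate 1 was thus 1 of the 3 libraries in which chaf-2 was ahead of psf-3, the others being both somatic LIN-35 libraries.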

How the results depend on the processing

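Calls at the 3 genes rested on few libraries. The psf-3 difference between germline and L1 was past the threshold as reported (2.04) and no longer past it with all deposited peaks (2.06, permutation-adjusted p = 0.0595), q below 1e-05 (1.83), absolute rank (0.79), libraries without a peak left out (0.048), strain means (2.04), EFL-1 and DPL-1 alone (1.07) and the replicate block (2.26, permutation-adjusted p = 0.0942). Its adjusted p over these alternatives, the within-chromosome rank and each library left out ran from 0.0149 to 0.964. Leaving out 1 library gave 1.87 to 2.44 at psf-3 and 1.30 to 1.84 at chaf-2, and for LIN-35 2.03 to 3.38 and 2.83 to 3.78. At pcn-1 it gave 0.47 to 1.37, and 0.62 to 2.05 for LIN-35, widths ran from -140.4 to -41.3 bp at pcn-1 and -112 to -20.9 bp at chaf-2, and chaf-2 in soma against intestine from -1.30 to -0.35, none past the threshold. The pcn-1 centre difference then ran from -86.0 to -58.9 bp. With absolute rank the pcn-1 difference turned to -0.19, and for LIN-35 to -1.03. With at least 12% of peaks on chromosome I, psf-3 turned to -0.084 and chaf-2 to -0.016. None of these turned values was past the threshold, and the cause was not tested.

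For soma against intestine, pcn-1 turned to 0.31 (absolute rank), 0.63 (replicate block) and 0.016 (rank within the chromosome), and psf-3 to 0.051 (absolute rank) and 0.032 (replicate block), with ranges of -0.73 to 0.64 and -0.69 to 0.12 when 1 library was left out.

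Regions ranked lower in the germline numbered 649, but 216 with absolute rank, 201 with libraries without a peak left out, 363 with the replicate block, 109 for EFL-1 and DPL-1 alone, and 0 with strain means or at least 12% on chromosome I (423 to 877 with 1 library left out). Those ranked higher numbered 118, but 259 with all deposited peaks, 53 at q below 1e-05, 955, 51, 39, 249, 0 and 0 in the same order (58 to 123). For LIN-35 they numbered 0 to 1642 lower and 0 to 5 higher with 1 library left out. Regions wider in the germline numbered 15, and 0 with the replicate block or strain means (9 to 19). Narrower regions numbered 169, but 421 with all deposited peaks, 47 at q below 1e-05, 1 with the block, 0 with strain means and 283 on the log2 scale (82 to 265). Regions with the centre shifted to lower coordinates numbered 119, but 1 with the block, 0 with strain means and 79 at q below 1e-05, and those shifted to higher coordinates fell to 1 with the block and 0 with strain means. Strain means and the libraries with at least 12% on chromosome I allow few splits. A region could pass there only together with many others, so these counts of 0 were in part set by the design.

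Replicate numbers did not pair the samples as a whole. Over 24 pairs of strains with the same 2 numbers, the correlation of their replicate differences ran from -0.63 to 0.60 and exceeded 0.1 in 9. It was highest among the intestinal strains, at 0.60 (DPL-1 and LIN-35), 0.52 (HPL-2 and LIN-35) and 0.45 (DPL-1 and HPL-2). In these strains the list of replicate 1 was longer than that of replicate 2, and the part of list length was not tested. The replicate block changed no other call at the 3 genes. The motif count in promoters was not run. Over libraries without a peak left out, LIN-35 at psf-3 and chaf-2 had no value, and neither did strain means and q below 1e-05 for widths and centres of genes with under 3 units.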

Other observations

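The nearest merged region to the psf-3 window lay 406 bp toward higher coordinates and was assigned to wwp-1, which encodes an E3 ubiquitin ligase. It had a kept peak in 20 libraries, 7 of them germline and 3 of these germline LIN-35, so that LIN-35 peaks were kept in the germline next to psf-3 but not at it. A region 879 bp from the pcn-1 window, toward lower coordinates and with no gene assigned, had a peak in 6 libraries, all of them germline and 3 of them LIN-35. Farther from pcn-1, the region of its neighbour cdc-73 lay 6291 bp toward lower coordinates and had a peak in 20 libraries, 6 of them germline and 2 of these LIN-35. The egl-30 region, 10960 bp from the chaf-2 window, had a peak in 17 libraries, of which 2 were germline LIN-35. These neighbours were picked out after their values were seen.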
